A study of Mus musculus with 18 samples.

Results

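Mitochondrial ribosomal protein genes were followed in RNA sequencing profiles of mouse cells that carry the label of pulmonary microvascular endothelial cells, while the title of the series names vascular smooth muscle cells. They were taken as every row of the deposited table whose symbol starts with Mrpl or Mrps and a number, pseudogene names left out, which gave 78 of 15288 genes. Of these, 51 encode proteins of the large subunit and 26 of the small subunit. Mrps36 carries a ribosomal name but is now placed outside the ribosome, in the 2-oxoglutarate dehydrogenase complex. The 6 groups held 3 libraries each. Cells had received small interfering RNA (siRNA) that targets CYP1B1, an estradiol-hydroxylating cytochrome P450, or scrambled siRNA. At 24 hours after transfection they were given 1 uM E2 (estradiol), 1 uM 16aOHE (the usual short name of 16-alpha-hydroxyestrone) or vehicle for 24 hours in 5% serum. The groups were therefore siCYP1B1 with E2, scrambled with E2, siCYP1B1 with 16aOHE, scrambled with 16aOHE, siCYP1B1 with vehicle and scrambled with vehicle. Every group was transfected, and no untransfected cells were analysed here. The labels name no strain and do not state that replicates are separate cultures. The p-values therefore cover the spread of the libraries alone, which may be technical.

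The mitochondrial ribosome makes the few respiratory chain and ATP synthase subunits that are encoded in mitochondrial DNA. Its RNA parts come from that DNA, whereas all of its proteins are encoded in the nucleus, made in the cytosol and imported. Part of these proteins have bacterial homologs, and the others were gained in the lineage of mitochondria. Their genes are read in nearly every tissue, and their promoters are textbook targets of NRF1, GABP of the ETS family, YY1 and coactivators of the PGC-1 family.

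Levels are given in CPM, reads of a gene scaled to the same total over the listed genes in every library. By the size of the steps between low values, 1 CPM was worth 14.1 reads in siCYP1B1 with 16aOHE, replicate 1, the least deep library, and 38.5 reads in the deepest. Cyp1b1 itself averaged 103 ± 1.95 CPM with siCYP1B1 and 118 ± 1.06 CPM with scrambled siRNA in E2, 90.1 ± 1.39 against 106 ± 1.25 CPM in 16aOHE, and 81.5 ± 0.724 against 92.2 ± 3.58 CPM in vehicle (SD, n = 3 each). The siRNA thus left most of its messenger RNA in place. Neither named cell type had its full set of defining markers. Of the endothelial ones, Pecam1 and Vwf were near 0, at 0.0481 ± 0.0593 and 0.0305 ± 0.0589 CPM, and Tek was at 0.824 ± 0.406 CPM, whereas Cd34 was at 107 ± 32.2, Flt1 at 70.0 ± 11.3 and Kdr at 4.37 ± 0.890 CPM (SD, n = 18). Of the smooth muscle ones, Myh11 (0.0764 ± 0.0877 CPM), Cnn1 (0.106 ± 0.0992) and Des (0.727 ± 0.254) were near 0, whereas Tagln was at 2.66 ± 0.709, Acta2 at 20.5 ± 7.11 and Smtn at 90.1 ± 6.80 CPM. Pooled over the arms, the summed endothelial markers were lower in siCYP1B1 libraries without overlap. Sums of the mesothelial, fibroblast and smooth muscle markers leaned lower, with ranges that overlapped when pooled over the arms. Leukocyte marker sums were close. Averaged over the arms, 5 of 6 tested mesothelial, 4 of 5 fibroblast, 3 of 3 smooth muscle and 2 of 3 endothelial markers were lower (limma, adjusted p under 0.05). Of the 2 leukocyte markers tested 0 passed, and 18.2% of all genes tested were lower. The same 5 of 6 count of mesothelial markers was found in each arm. Of 10 listed endothelial markers 6 were rows of the table, and these summed to 123 to 165 CPM in siCYP1B1 and to 192 to 267 CPM in scrambled libraries. The 6 mesothelial markers summed to 3018 to 3896 against 3795 to 4980 CPM, and the 6 fibroblast markers to 3208 to 5124 against 3971 to 6368 CPM. The 6 smooth muscle markers summed to 97 to 118 against 102 to 137 CPM, and the 3 leukocyte markers in the table to 32 to 36 against 32 to 38 CPM. In bulk RNA, fewer cells of a type and less RNA per cell cannot be told apart, and the part of such shifts in the results that follow was not tested.

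The members were expressed together at middle levels. All but 1 passed the filter of a mean of 1 CPM, and the 77 tested had a median level of 40 CPM, with 74 at 10 CPM or more. Mrpl23, a large subunit protein with a bacterial homolog, was below the filter at 0.392 ± 0.199 CPM (SD, n = 18), and a pseudogene is named after it. It was listed at 0 in 1 library, reached 0.863 CPM in another and entered no test. Per kilobase of exon, Mrpl13 was highest among those tested at 112 CPM, followed by Mrps21 at 105, Mrpl52 at 94.1 and Mrpl33 at 92.3. Mrpl48 was lowest at 1.80 CPM per kilobase, and the median of the 77 was 25.2. By CPM alone the highest were Mrpl13 (137 ± 8.67), Mrpl17 (96.9 ± 5.97) and Mrpl12 (90.0 ± 8.34), and the lowest tested were Mrps36 (4.29 ± 1.10), Mrpl48 (8.46 ± 1.02) and Mrpl55 (9.54 ± 1.22, SD over 18 libraries). The genes lay on 17 chromosomes, with 11 members on chromosome 11.

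Within groups the members were about as steady as other genes. The median residual SD was 0.0833 on the log2 scale for the members and 0.0791 for all 11835 genes tested. Mrps23, a small subunit protein, was steadiest at 0.0456. Mrpl33, a small large-subunit protein with a bacterial homolog, varied most at 0.424. It had 35.7, 33.8 and 29.9 CPM in siCYP1B1 with E2, 32.5, 25.5 and 39.0 CPM in scrambled with E2, and 66.8, 74.4 and 36.0 CPM in siCYP1B1 with 16aOHE. In scrambled with 16aOHE it had 36.3, 62.6 and 62.7 CPM, in siCYP1B1 with vehicle 39.8, 63.6 and 32.8 CPM, and in scrambled with vehicle 35.6, 29.7 and 57.9 CPM. Its libraries thus lay far apart inside 4 of the 6 groups, and Mrpl33 was called in no comparison.

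The first question was what siCYP1B1 did to these genes, averaged over the E2, 16aOHE and vehicle arms. Members were mostly higher, each by a small amount. Of the 77 tested, 49 were called higher and 2 lower (limma on log2(CPM + 1), Benjamini-Hochberg adjusted p under 0.05 over all genes tested). Among all 11835 genes, 26.5% were called higher and 18.2% lower. The median log2 difference of the members was 0.10, against 0.03 for all genes tested. Among the 6675 genes with a mean of 10 to under 100 CPM, 28.5% were called higher, compared with 48 of the 73 members in that range (65.8%). The 49 higher members had log2 differences of 0.08 to 0.29. The difference was above 0 in 69 members and below 0 in 8, of which only Mrps36 and Mrps15 were called.

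**Figure D1:**
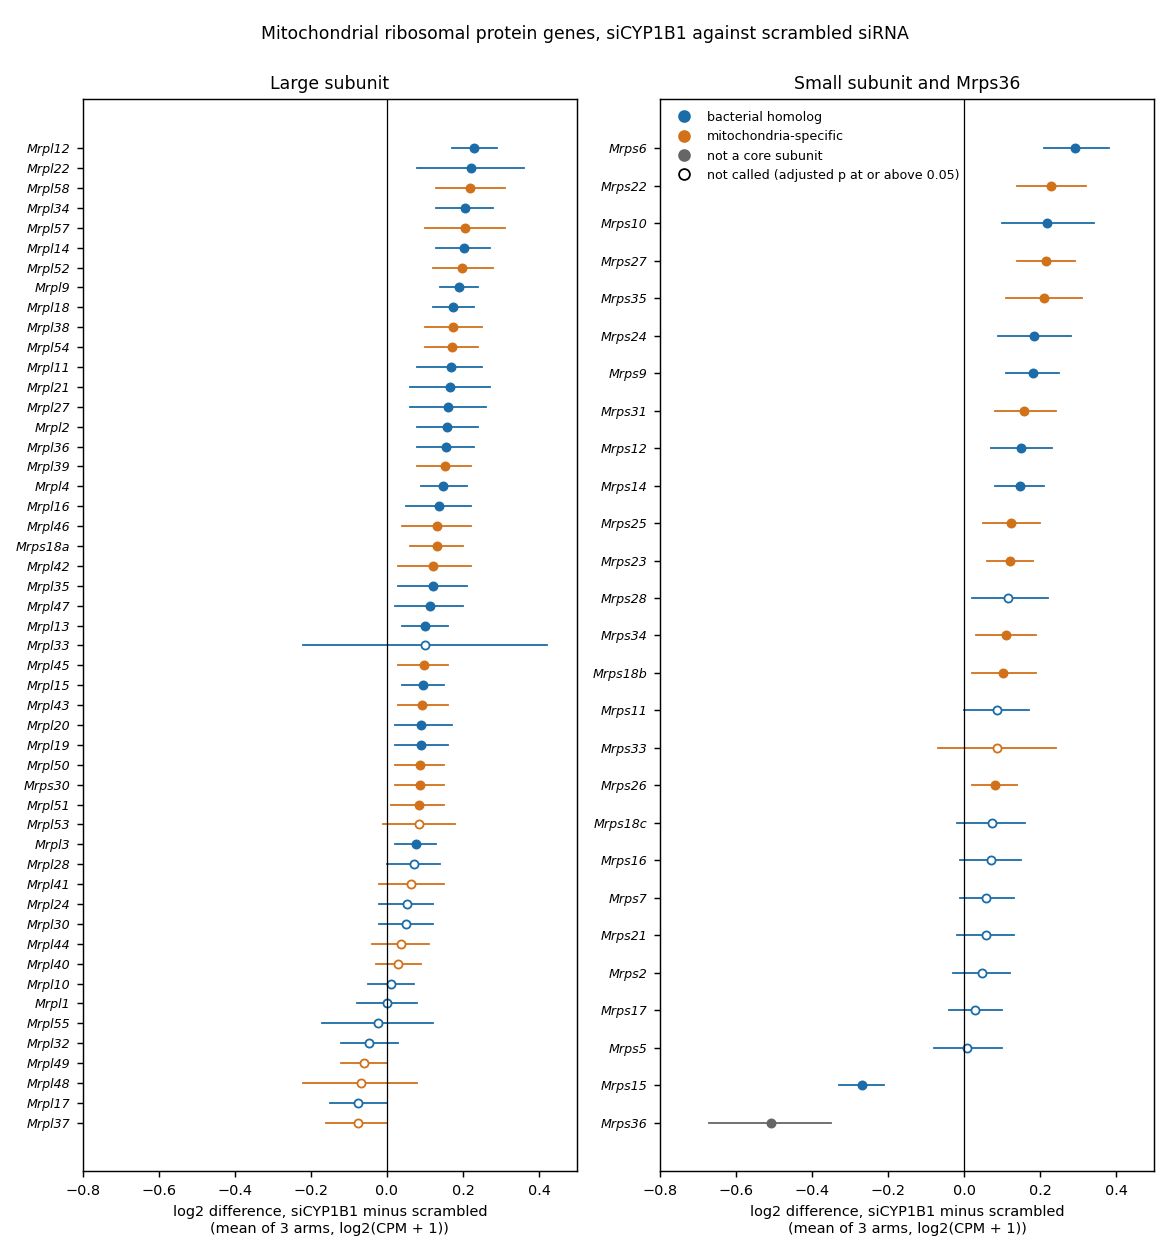
Log2 difference between siCYP1B1 and scrambled siRNA, averaged over the 3 arms, for each of the 77 tested members (x axis, log2(CPM + 1) scale; bars, 95% intervals; filled points, called; open points, not called), in large subunit (left) and small subunit with Mrps36 (right). Most points lie right of 0, led by Mrps6 at 0.29, and Mrps15 (-0.27) and Mrps36 (-0.51) stand apart on the left.

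Summed over the 78 members, the level was 3381 ± 21.9 CPM in siCYP1B1 and 3154 ± 152 CPM in scrambled cells with E2, 3299 ± 91.9 against 3072 ± 119 CPM with 16aOHE, and 3297 ± 91.1 against 3083 ± 54.9 CPM with vehicle (SD, n = 3 each). The siCYP1B1 libraries lay at 3192 to 3404 CPM and the scrambled ones at 2945 to 3302 CPM, so that the 2 siRNA groups overlapped only across arms. Within each arm the lowest siCYP1B1 library was above the highest scrambled one. Both subunits took part. Large subunit members summed to 2354 ± 19.9 against 2196 ± 105 CPM in E2, 2311 ± 65.8 against 2144 ± 90.3 CPM in 16aOHE and 2300 ± 67.2 against 2150 ± 44.0 CPM in vehicle. Small subunit members summed to 1024 ± 5.54 against 953 ± 47.5 CPM, 985 ± 27.6 against 922 ± 28.4 CPM and 993 ± 26.9 against 928 ± 13.4 CPM in the same arms.

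**Figure D2:**
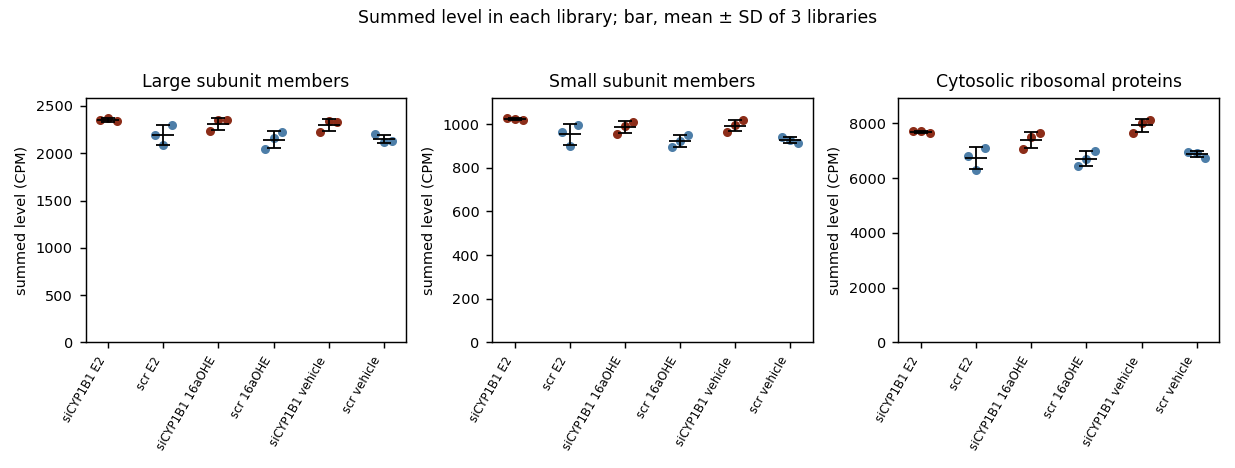
Summed CPM of the large subunit members, the small subunit members and the cytosolic ribosomal proteins in each library (points; red, siCYP1B1; blue, scrambled; bars, mean ± SD of 3 libraries). Within each arm the siCYP1B1 points lie above the scrambled ones in all 3 panels, with the large subunit at 2222 to 2376 CPM in siCYP1B1 libraries and at 2047 to 2302 CPM in scrambled ones.

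By subunit, 34 of 50 large subunit members were called higher and 0 lower, with a median log2 difference of 0.10. Of the 26 small subunit members 15 were called higher and 1 lower, with a median of 0.11. Large subunit proteins with a bacterial homolog numbered 20 higher of 29, and those specific to mitochondria 14 of 21. In the small subunit the counts were 6 higher and 1 lower of 16 with a bacterial homolog, and 9 higher of 10 specific to mitochondria. The difference between these classes was not tested.

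Mrps6, Mrpl12, Mrps22 and Mrpl34 led the increases. Mrps6, a small subunit protein with a bacterial homolog (chromosome 16, 92058336 to 92112227, plus strand, mm10), had 34.7, 34.2 and 32.5 CPM in siCYP1B1 and 25.2, 24.7 and 27.2 CPM in scrambled cells with E2. With 16aOHE it had 30.1, 30.3 and 32.2 against 22.7, 27.4 and 27.6 CPM, and with vehicle 31.3, 34.1 and 32.2 against 29.9, 26.3 and 25.7 CPM. The groups did not overlap in any arm. The averaged log2 difference was 0.29 (SE 0.0415, adjusted p = 8.03e-06), and Mrps6 was called in each arm. The call in vehicle was lost without scrambled vehicle replicate 2 or 3 or siCYP1B1 vehicle replicate 2, and that in 16aOHE without scrambled 16aOHE replicate 1 or siCYP1B1 16aOHE replicate 3 and in a fit to the 2 groups (adjusted p up to 0.134). Its gene overlaps that of the transporter Slc5a3 over 29138 bases, and the counting is not stated to separate them. Slc5a3 had an averaged difference of 0.14 and did not pass (adjusted p = 0.0545).

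Mrpl12, the protein of the flexible stalk of the large subunit, which is also known to bind the mitochondrial RNA polymerase, lies on chromosome 11 (120484669 to 120488754, plus strand). It had 99.8, 98.0 and 98.3 CPM in siCYP1B1 with E2, 86.7, 103 and 102 CPM with 16aOHE and 91.4, 98.1 and 97.8 CPM with vehicle. The scrambled libraries had 83.5, 82.5 and 83.4 CPM with E2, 79.8, 84.5 and 82.8 CPM with 16aOHE and 85.5, 81.7 and 81.2 CPM with vehicle. Every siCYP1B1 library was thus above every scrambled library for Mrpl12, also across arms. The averaged difference was 0.23 (SE 0.0295, adjusted p = 2.41e-06), and Mrpl12 was called in each arm.

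Mrps22, a small subunit protein specific to mitochondria and known from inherited mitochondrial disease in humans (chromosome 9, 98588730 to 98601679, minus strand), rose by 0.23 (SE 0.0439, adjusted p = 0.000255). It had 27.5, 28.2 and 27.2 CPM in siCYP1B1 and 20.4, 23.4 and 26.5 CPM in scrambled cells with E2, 25.2, 28.6 and 26.9 against 20.9, 23.4 and 22.6 CPM with 16aOHE, and 26.8, 25.4 and 26.7 against 21.5, 24.1 and 23.5 CPM with vehicle. The groups were separate in each arm, with log2 differences of 0.24 with E2, 0.26 with 16aOHE and 0.19 with vehicle. Mrpl34, a short large-subunit protein (chromosome 8, 71464926 to 71465753, plus strand), rose by 0.21 (SE 0.0381, adjusted p = 0.000170). It had 59.0, 53.2 and 52.1 against 45.3, 45.0 and 49.2 CPM with E2, 48.5, 51.4 and 52.3 against 36.9, 46.3 and 43.1 CPM with 16aOHE, and 47.4, 50.1 and 50.3 against 45.3, 45.7 and 45.1 CPM with vehicle, siCYP1B1 before scrambled. Here too the libraries of an arm did not overlap, and the differences were 0.23 with E2, 0.27 with 16aOHE and 0.12 with vehicle. Neither Mrps22 nor Mrpl34 was called in all 3 arms.

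Mrps36 and Mrps15 went the other way. Mrps36, an adaptor of the 2-oxoglutarate dehydrogenase complex (chromosome 13, 100735940 to 100744659, minus strand), had 2.67, 3.41 and 3.67 CPM in siCYP1B1 and 4.38, 4.19 and 5.48 CPM in scrambled cells with E2. It had 3.91, 2.83 and 2.67 against 5.41, 5.74 and 5.30 CPM with 16aOHE and 3.41, 3.55 and 4.26 against 6.18, 5.15 and 4.98 CPM with vehicle. All siCYP1B1 libraries of an arm were below all scrambled ones. The averaged difference was -0.51 (SE 0.0758, adjusted p = 1.49e-05), with -0.42 in E2, -0.66 in 16aOHE and -0.44 in vehicle. The call in vehicle was lost without scrambled vehicle replicate 1 or siCYP1B1 vehicle replicate 1 or 2, and that in E2 without scrambled E2 replicate 3 or siCYP1B1 E2 replicate 1 (adjusted p up to 0.138). Mrps36 was the lowest member tested, where the pseudocount understates a change, and 3 pseudogenes are named after it, so that reads could be split between copies.

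Mrps15 is a small subunit protein with a bacterial homolog (chromosome 4, 126046928 to 126055536, plus strand). It had 38.2, 38.2 and 37.6 CPM in siCYP1B1 and 49.3, 47.9 and 49.6 CPM in scrambled cells with E2. It had 42.7, 39.4 and 41.1 against 45.7, 48.5 and 45.5 CPM with 16aOHE and 36.7, 40.8 and 40.5 against 49.1, 47.0 and 47.0 CPM with vehicle. Mrps15 was the 1 core ribosome member called lower, with an averaged difference of -0.27 (SE 0.0282, adjusted p = 1.38e-07). The differences were -0.36 in E2, -0.18 in 16aOHE and -0.27 in vehicle, with the 16aOHE call lost without replicate 2 of either 16aOHE group and in a fit to the 2 groups (adjusted p up to 0.0725). No siCYP1B1 library reached the level of any scrambled one.

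**Figure D3:**
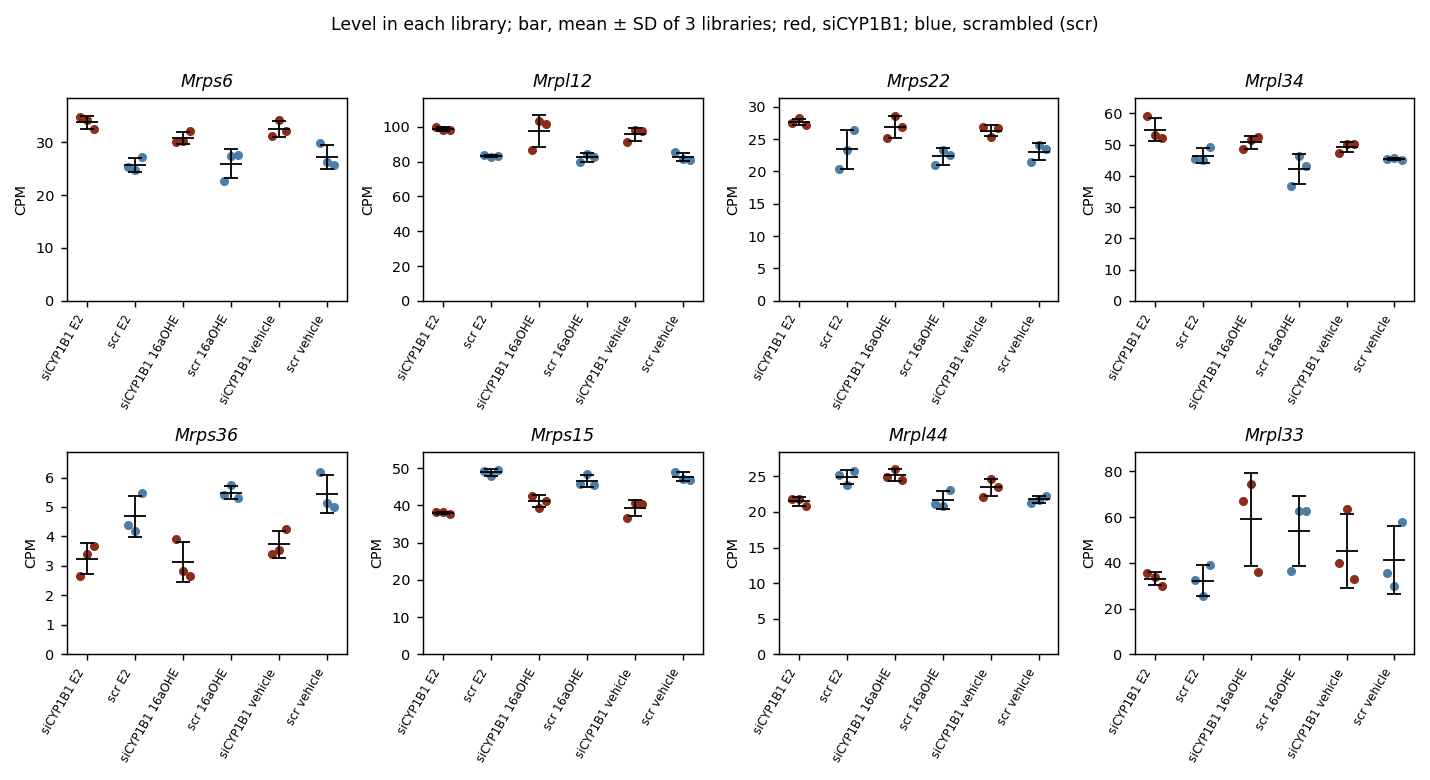
CPM in each library (points; red, siCYP1B1; blue, scrambled; bars, mean ± SD of 3 libraries) for the 4 members that rose most, Mrps36 and Mrps15, and for Mrpl44 and Mrpl33, with each axis starting at 0. Mrps36 and Mrps15 are lower in every siCYP1B1 group, Mrpl44 changes side between the E2 and 16aOHE arms, and Mrpl33 spreads between 25.5 and 74.4 CPM.

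The promoters of 5 members are printed because Mrpl12 and Mrps22 rose, Mrps36 and Mrps15 fell, and Mrps11 and Mrpl46 share theirs. Each window holds 250 bases before and 50 after the start in RefSeq GRCm38.p6, read 5′ to 3′ on the strand of the gene, and capitals mark the motifs searched on both strands. The windows are chr11:120484387-120484686 (plus) for Mrpl12, chr9:98601630-98601929 (minus) for Mrps22, chr13:100744610-100744909 (minus) for Mrps36, chr4:126046678-126046977 (plus) for Mrps15 and chr7:78782881-78783180 (plus) for Mrps11.
Mrpl12: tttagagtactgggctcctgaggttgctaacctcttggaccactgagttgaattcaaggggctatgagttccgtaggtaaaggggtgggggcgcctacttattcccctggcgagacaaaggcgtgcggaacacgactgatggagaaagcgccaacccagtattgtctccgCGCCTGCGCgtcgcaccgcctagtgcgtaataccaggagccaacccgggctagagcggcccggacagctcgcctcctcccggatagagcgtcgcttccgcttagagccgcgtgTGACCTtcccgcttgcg
Mrps22: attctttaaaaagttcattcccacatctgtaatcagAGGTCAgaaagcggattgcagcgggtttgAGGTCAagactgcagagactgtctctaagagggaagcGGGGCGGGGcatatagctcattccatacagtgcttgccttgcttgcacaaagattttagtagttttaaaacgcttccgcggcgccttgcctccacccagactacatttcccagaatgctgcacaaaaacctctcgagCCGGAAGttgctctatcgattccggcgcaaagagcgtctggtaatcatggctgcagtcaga
Mrps36: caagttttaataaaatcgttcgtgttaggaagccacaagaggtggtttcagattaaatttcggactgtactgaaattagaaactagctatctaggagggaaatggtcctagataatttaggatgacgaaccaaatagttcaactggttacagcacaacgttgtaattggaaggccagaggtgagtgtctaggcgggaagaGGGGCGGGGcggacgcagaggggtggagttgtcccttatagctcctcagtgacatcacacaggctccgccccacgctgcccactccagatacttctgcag
Mrps15: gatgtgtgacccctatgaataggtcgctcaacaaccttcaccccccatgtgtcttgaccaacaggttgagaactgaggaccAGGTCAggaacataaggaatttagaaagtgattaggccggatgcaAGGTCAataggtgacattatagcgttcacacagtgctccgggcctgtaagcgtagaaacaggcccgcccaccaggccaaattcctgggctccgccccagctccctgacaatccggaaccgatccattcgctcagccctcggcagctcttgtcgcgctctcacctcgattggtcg
Mrps11: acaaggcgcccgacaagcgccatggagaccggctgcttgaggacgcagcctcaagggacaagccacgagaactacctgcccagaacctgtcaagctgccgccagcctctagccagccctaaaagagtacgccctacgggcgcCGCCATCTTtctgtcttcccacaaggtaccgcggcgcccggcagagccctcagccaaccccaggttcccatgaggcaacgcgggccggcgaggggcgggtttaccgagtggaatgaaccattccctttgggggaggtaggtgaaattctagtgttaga
The Mrpl12 window held the NRF1 motif at base 171 and the nuclear receptor motif at base 284. The Mrps22 window held the ETS motif at base 240, the SP motif at base 103 and the nuclear receptor motif at bases 37 and 66. The Mrps36 window held the SP motif at base 201, the Mrps15 window the nuclear receptor motif at bases 82 and 127, and the Mrps11 window the YY1 motif at base 143.

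A window was found for 69 of the 78 members. The ETS motif CCGGAAG, which GABP binds, was in 37.7% of them, in 21% of the 9320 tested genes with a window and in 9.93% of all 27025. The NRF1 motif GCGCANGCG was in 23.2% of members, 16% of tested genes and 7.03% of all. The YY1 motif AAGATGGCG was in 11.6%, 3.78% and 1.64%. The other motifs had lower or similar shares among members and tested genes. The SP motif CCCCGCCCC was in 18.8% of members and 25.7% of tested genes, the E-box CACGTG in 7.25% and 12%, and the nuclear receptor motif AGGTCA, a core of estrogen receptor sites, in 15.9% and 14.4%. The site of estrogen-related receptors, TCAAGGTCA, which contains AGGTCA, was in 0% and 0.3%. Among the 41 called-higher members with a window, 43.9% held the ETS motif, as did 29.6% of the 27 others tested. The same shares were 24.4% and 22.2% for NRF1, 14.6% and 7.41% for YY1, and 19.5% and 11.1% for AGGTCA. They were 14.6% and 22.2% for SP, 7.32% and 7.41% for the E-box, and 0% in both for TCAAGGTCA. These differences were not tested. These are counts of letters, not of binding.

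Mrps11 and Mrpl46 were the 1 pair of members that neighboured each other in the table. They start back to back on chromosome 7, Mrpl46 at 78783089 on the minus strand and Mrps11 at 78783131 on the plus strand, with 41 bases between them. Mrpl46 of the large subunit was called higher on average (log2 0.13, SE 0.0421, adjusted p = 0.0146), and Mrps11 of the small subunit was not (0.09, SE 0.0401, adjusted p = 0.0846). Mrpl46 had 22.7, 25.9 and 23.7 against 21.3, 21.5 and 25.0 CPM with E2, 23.7, 25.4 and 25.6 against 20.3, 21.8 and 23.4 CPM with 16aOHE, and 23.6, 25.7 and 26.4 against 24.2, 22.9 and 22.2 CPM with vehicle, siCYP1B1 before scrambled. Its groups overlapped with E2 and with vehicle.

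The members were also searched for the bases AAAGTCA in the 3′ UTR, 7 bases picked in an earlier look at these data, so that their counts support nothing. They were in the 3′ UTR of 13 of 78 members (16.7%) and of 15.4% of the 11409 tested genes searched. Of the 13 members, 6 were called higher, 1 lower and 6 neither. The 1 called lower was Mrps36, whose 3′ UTR of 301 bases was the shortest of the 13, the next being 1352 bases long in Mrpl45. The site begins at base 74 of the 3′ UTR on chromosome 13, minus strand, and is printed with the 7 bases in capitals.
Mrps36: atgtcaaatgaAAAGTCAtatattaaaca
The 3′ UTR of Mrps15 was 15 bases long and held none. The siRNA sequence was not given in the sources used here, and its part was not tested.

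Each arm on its own gave fewer calls with the same leaning. With E2, 17 members were called higher and 3 lower with siCYP1B1, against 11.4% and 9.80% of all genes. With 16aOHE 14 were called higher and 2 lower, against 10.4% and 9.31%. With vehicle 16 were called higher and 2 lower, against 11.5% and 9.12%. Under quantile normalization 9 were called higher and 3 lower with vehicle, against 8.89% and 10% of all genes. Under median-of-ratios size factors 9 were called higher and 3 lower, against 7.48% and 10.6%. In E2 these scalings gave 11 and 12 higher, against 9.48% and 7.83% of all genes. In 16aOHE they gave 10 and 12 higher, against 8.82% and 8.67%. As deposited, the median log2 differences of the members were 0.12, 0.11 and 0.10 in the E2, 16aOHE and vehicle arms. Those of all genes were 0.03, 0.01 and 0.03. Mrpl9, Mrpl12, Mrpl14, Mrps6 and Mrps27, a pentatricopeptide repeat protein of the small subunit, were called higher in all 3 arms, which is 6.49% of the members and 4.66% of all genes. Mrps15 and Mrps36 were called lower in all 3, 2.60% against 5.57%. Another 8 members were called higher in 2 arms (10.4% against 4.95%) and 16 in 1 (20.8% against 9.36%). The difference was above 0 in all 3 arms for 59 of the 77 members (76.6%, against 39.0% of all genes) and below 0 in all 3 for 6 (7.79% against 26.5%), namely Mrpl17, Mrpl37, Mrpl48, Mrpl49, Mrps15 and Mrps36. In 12 members the siCYP1B1 libraries were above the scrambled ones without overlap in every arm, as in 7.99% of all genes, and in 2 they were below, as in 7.51%. The 12 were Mrpl4, Mrpl9, Mrpl12, Mrpl14, Mrpl18, Mrpl34, Mrpl39, Mrpl52, Mrpl54, Mrps6, Mrps14 and Mrps22.

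The counts within an arm changed when single libraries were left out. A group with fewer libraries gives less power for every gene. The shares of all genes called in these fits were not computed, so the changes cannot be read as particular to the members. The 17 higher members with E2 became 6 without scrambled E2 replicate 2, 10 without scrambled E2 replicate 1, 9 without siCYP1B1 E2 replicate 2 and 11 without siCYP1B1 E2 replicate 1 or 3. The 14 with 16aOHE became 4 without scrambled 16aOHE replicate 1, 9 without siCYP1B1 16aOHE replicate 2 and 8 without siCYP1B1 16aOHE replicate 3. The 16 with vehicle became 7 without scrambled vehicle replicate 2 or 3 or siCYP1B1 vehicle replicate 3, and 8 without siCYP1B1 vehicle replicate 2. In the averaged comparison the higher count stayed at 40 to 50 whichever library was left out.

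Mrpl44, a large subunit protein with a ribonuclease III fold, was the third member called lower with E2, and it was called higher with 16aOHE. It had 21.8, 21.8 and 20.8 CPM in siCYP1B1 and 25.2, 23.7 and 25.7 CPM in scrambled cells with E2 (log2 -0.20, SE 0.0600, adjusted p = 0.0187). With 16aOHE it had 25.0, 26.1 and 24.5 against 21.1, 20.8 and 23.1 CPM (0.21, adjusted p = 0.0174), and with vehicle 22.2, 24.6 and 23.5 against 21.3, 21.7 and 22.3 CPM (0.10, adjusted p = 0.247). The groups were separate with both estrogens, in opposite directions, and overlapped with vehicle. The interaction of siCYP1B1 with E2 against vehicle was -0.31 (SE 0.0849) and did not pass (adjusted p = 0.998). The interaction of siCYP1B1 with 16aOHE against E2, added after these values were seen, was 0.41 (SE 0.0849) and did not pass (adjusted p = 0.387). The E2 call was lost without scrambled E2 replicate 1 or 3 or siCYP1B1 E2 replicate 3 (adjusted p up to 0.0754). The 16aOHE call was lost without scrambled 16aOHE replicate 1 or 2 or siCYP1B1 16aOHE replicate 2 and in a fit to the 2 groups (adjusted p up to 0.0774).

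The paralogs Mrps18a, Mrps18b and Mrps18c descend from 1 bacterial small subunit protein, and the protein of Mrps18a sits in the large subunit. In the class counts above, only Mrps18c was placed with the bacterial homologs. Mrps18a and Mrps18b were counted there as specific to mitochondria, despite this descent. Mrps18a was called higher with siCYP1B1 on average (log2 0.13, SE 0.0331, adjusted p = 0.00280). Mrps18b was called at the edge (0.10, SE 0.0413, adjusted p = 0.0471), a call lost in 15 of 22 other settings, 12 of them without 1 library. Mrps18c was not called (0.07, SE 0.0426, adjusted p = 0.181), except without scrambled E2 replicate 3. Their intervals overlapped, at 0.06 to 0.20, 0.02 to 0.19 and -0.02 to 0.16. Mrps18a had 45.2, 44.0 and 46.5 against 42.9, 39.6 and 42.4 CPM with E2, 39.8, 42.0 and 42.1 against 38.6, 38.6 and 38.0 CPM with 16aOHE, and 38.9, 41.1 and 44.3 against 39.9, 34.4 and 35.7 CPM with vehicle, siCYP1B1 before scrambled. These groups were separate with E2 and with 16aOHE and overlapped with vehicle.

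The second question was what the estrogens did to the members. Few responded to E2. In siCYP1B1 cells 4 were called higher and 1 lower against vehicle, where 16.7% and 10.8% of all genes were. In scrambled cells 5 were called higher and 1 lower, where 18.6% and 11.4% of all genes were. The shares of members called higher were thus 5.19% and 6.49%, below those of all genes, and their median log2 difference was 0.03 in each, against 0.04 and 0.03 for all genes. Under quantile normalization the member medians were -0.01 and -0.03. The vehicle libraries used here are also part of the siRNA comparisons.

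In siCYP1B1 cells the 4 that rose with E2 were Mrps34, Mrps24, Mrps12 and Mrpl45, and Mrpl36 fell. Mrps34, a small subunit protein specific to mitochondria, had 48.0, 42.1 and 45.0 CPM with E2 and 34.4, 39.7 and 40.4 CPM with vehicle (log2 0.23, SE 0.0678, adjusted p = 0.0131). Mrps24, at the entry of the messenger RNA channel, had 40.2, 36.8 and 39.2 against 31.1, 34.5 and 32.8 CPM (0.23, adjusted p = 0.0305). Mrpl45, which faces the inner membrane, had 63.9, 66.8 and 62.3 against 54.1, 58.4 and 57.4 CPM (0.18, adjusted p = 0.0155). The E2 and vehicle libraries of these 3 did not overlap. Mrpl36, a very short large-subunit protein, had 33.7, 37.7 and 34.6 with E2 against 36.8, 41.4 and 42.5 CPM with vehicle (-0.18, adjusted p = 0.0431), with overlap. The 4 increases became 0 without siCYP1B1 vehicle replicate 1, 1 without siCYP1B1 E2 replicate 1 and 2 without siCYP1B1 E2 replicate 2. With quantile normalization 2 members were higher and 3 lower, and with median-of-ratios size factors 2 and 1. The Mrpl36 call was lost without siCYP1B1 vehicle replicate 2 or 3, siCYP1B1 E2 replicate 1 or 3, or scrambled vehicle replicate 3, and without a filter (adjusted p up to 0.176).

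In scrambled cells the 5 that rose with E2 were Mrpl57, Mrpl30, Mrpl44, Mrps12 and Mrps18a, and Mrpl54 fell. Mrpl57, a large subunit protein specific to mitochondria, had 36.3, 36.0 and 41.0 CPM with E2 and 28.5, 33.6 and 33.5 CPM with vehicle (log2 0.24, SE 0.0858, adjusted p = 0.0392). Mrpl30 had 59.9, 52.9 and 59.4 against 51.6, 49.7 and 49.3 CPM (0.19, adjusted p = 0.0194), and Mrpl44 rose by 0.19 (adjusted p = 0.0227). The libraries of Mrpl57, Mrpl30 and Mrpl44 did not overlap between E2 and vehicle. Mrpl54 had 26.9, 29.5 and 29.7 against 32.5, 31.4 and 32.5 CPM (-0.16, adjusted p = 0.0437), also without overlap. Mrps12, a protein of the decoding centre, was the 1 member called in both siRNA groups. It had 26.1, 26.4 and 24.4 against 21.4, 22.6 and 22.5 CPM in siCYP1B1 cells (0.20, adjusted p = 0.0335) and 22.4, 22.6 and 24.3 against 19.1, 19.1 and 22.4 CPM in scrambled cells (0.19, adjusted p = 0.0443). In scrambled cells the lowest E2 library of Mrps12 was level with the highest vehicle library, and that call was lost in 14 of 23 other settings. The 5 increases became 0 without scrambled E2 replicate 3, 1 without scrambled vehicle replicate 2, and 2 without scrambled vehicle replicate 1 or scrambled E2 replicate 1. They became 0 under quantile normalization and under median-of-ratios size factors. The Mrpl54 call was lost without any 1 of scrambled vehicle replicates 1, 2 and 3, scrambled E2 replicates 1 and 2, scrambled 16aOHE replicate 2 or siCYP1B1 E2 replicate 2, without a filter and in a fit to the 2 groups (adjusted p up to 0.194).

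With 16aOHE no member passed against vehicle. In siCYP1B1 cells 0 of 77 were called by limma, where 2.53% of all genes were called higher and 2.86% lower, and 4 members had an unadjusted p under 0.05. In scrambled cells 0 of 77 were called, where 1.76% and 2.08% of all genes were, and 3 members had an unadjusted p under 0.05. Among all 11835 genes, 2263 in siCYP1B1 and 1769 in scrambled cells had an unadjusted p under 0.05. The smallest adjusted p was 0.0919 for Mrpl51 in siCYP1B1 cells and 0.109 for Mrpl30 in scrambled cells. Leaving out siCYP1B1 vehicle replicate 1 gave 1 lower call in siCYP1B1 cells, and leaving out scrambled 16aOHE replicate 2 gave 1 higher call in scrambled cells. No other tool was run, since the values are not whole counts. A p that misses the threshold does not show that the levels were the same.

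**Figure D4:**
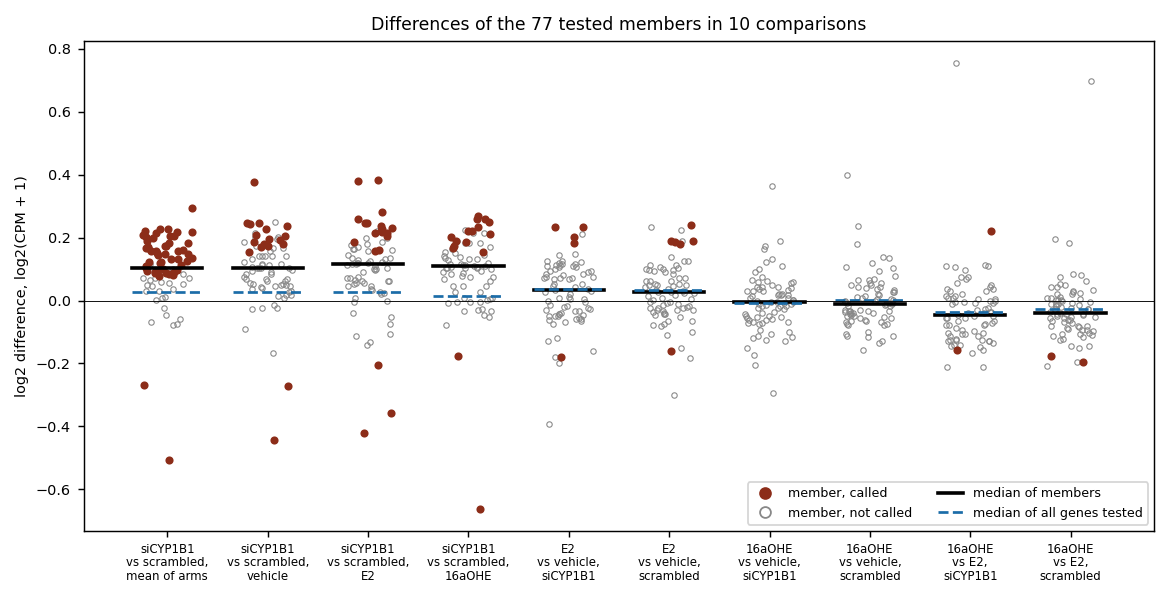
Log2 differences of the 77 tested members in 10 comparisons (y axis, log2(CPM + 1) scale; filled points, called members; open points, not called; black bars, median of the members; dashed bars, median of all genes tested). The members' median lies at 0.10 to 0.12 in the 4 siRNA comparisons and between -0.05 and 0.03 in the 6 estrogen comparisons, and the highest open point of each 16aOHE against E2 comparison is Mrpl33.

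Set against E2 at the same dose and time, 16aOHE gave 2 called members in each siRNA group, Mrpl4 and Mrpl44, where 18.3% of all genes were called in siCYP1B1 and 18.4% in scrambled cells. In structure, 16aOHE carries a hydroxyl group that E2 lacks, and a ketone where E2 has a hydroxyl. Mrpl4, a large subunit protein near the peptide exit tunnel, had 51.0, 52.1 and 49.3 CPM with 16aOHE and 54.1, 58.3 and 57.8 CPM with E2 in siCYP1B1 cells (log2 -0.16, SE 0.0491, adjusted p = 0.0313). In scrambled cells Mrpl4 had 42.2, 47.5 and 47.0 against 52.2, 52.1 and 50.3 CPM (-0.18, adjusted p = 0.0161). It was lower with 16aOHE in both, with no overlap, and neither call held under quantile normalization, median-of-ratios size factors or a fit to the 2 groups. Mrpl44 was higher with 16aOHE than with E2 in siCYP1B1 cells (0.22, adjusted p = 0.0137) and lower in scrambled cells (-0.19, adjusted p = 0.0281). The scrambled Mrpl44 call was lost in 7 of 23 other settings, among them quantile normalization, median-of-ratios size factors and a fit to the 2 groups (adjusted p up to 0.109), and the siCYP1B1 call in 2, without siCYP1B1 E2 replicate 3 or siCYP1B1 16aOHE replicate 2. For Mrpl33 the differences were 0.75 (95% interval 0.20 to 1.31, adjusted p = 0.0523) and 0.70 (0.15 to 1.25, adjusted p = 0.0714), and neither passed. Without siCYP1B1 E2 replicate 3 the siCYP1B1 count became 0, and it became 1 without siCYP1B1 E2 replicate 2 or siCYP1B1 16aOHE replicate 2. It became 4 without scrambled E2 replicate 2, scrambled 16aOHE replicate 1 or siCYP1B1 16aOHE replicate 3. The scrambled count became 1 without scrambled E2 replicate 1 or scrambled 16aOHE replicate 1 and 4 without siCYP1B1 16aOHE replicate 3.

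No member passed the test of an estrogen effect that differed between the siRNA groups. By limma, 0 of 77 members were called for the interaction with E2, as were 0.00% of all genes, and 1 member had an unadjusted p under 0.05. For the interaction with 16aOHE 0 members and 0.00% of all genes were called, and 3 members had an unadjusted p under 0.05. Among all genes, 470 and 596 had an unadjusted p under 0.05 in these tests.

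The rest of the mitochondrial translation machinery was set beside the members, in siCYP1B1 against scrambled cells averaged over the arms. Of 6 tested ribosome-associated genes with other names, 4 were called higher and 1 lower, with a median log2 difference of 0.09. Gadd45gip1 (0.15), the insertase gene Oxa1l (0.11), Chchd1 (0.10) and Aurkaip1 (0.07) were higher, and Ptcd3, a small subunit protein, was lower (-0.09). Dap3, a guanine nucleotide binding protein of the small subunit, was not called (0.06, adjusted p = 0.0554). Of 14 translation factors 8 were called higher and 1 lower (median 0.13). The elongation factor gene Tsfm (0.24), the recycling factor Gfm2 (0.22) and the translational activator Taco1 (0.19) rose, and the release factor gene Mtrf1 fell (-0.16).

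Of 26 ribosome assembly and ribosomal RNA modification genes, 9 were called higher and 0 lower (median 0.07), led by the ribosomal RNA methyltransferases Tfb1m (0.24) and Mrm3 (0.20) and, among others, the helicase Ddx28 (0.17). The list also held Lars2 (0.19), which charges leucine transfer RNA. Without it 8 of 25 were called higher. Of 20 genes of mitochondrial transcription and RNA handling, 10 were called higher and 2 lower (median 0.07). Lrpprc, which with Slirp stabilizes mitochondrial messenger RNA, rose by 0.32 (SE 0.0215, adjusted p = 1.71e-10) and Slirp by 0.19. Hsd17b10, a subunit of the mitochondrial ribonuclease P that also belongs to a family of steroid dehydrogenases, rose by 0.24 (adjusted p = 2.69e-05). Fastkd5 (-0.13) and Tfam, which packages mitochondrial DNA (-0.07), fell. Read against the 26.5% of all genes called higher, the share of the assembly list was 34.6%, that of the RNA handling list 50.0% and that of the translation factors 57.1%, without a test of the lists.

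Of 10 listed nuclear regulators, all in the table, 9 passed the filter and were tested. Among these, 7 were called higher (77.8%, against 26.5% of all genes) and 1 lower (11.1%, against 18.2%). Ppargc1b, a coactivator of the PGC-1 family, rose by 0.35 (SE 0.0788, adjusted p = 0.00120) and Esrra, its partner and the gene of estrogen-related receptor alpha, by 0.30 (SE 0.0317, adjusted p = 1.50e-07). The site of estrogen-related receptors was in 0% of the member promoter windows and in 0.3% of those of tested genes. A site this rare cannot set the members apart from other genes. Gabpb1 rose by 0.12, Nrf1 by 0.11, Myc by 0.12, Pprc1 by 0.09 and Yy1 by 0.06, whereas Gabpa fell by 0.07 (adjusted p = 0.0150). Sp1 was not called (0.02). The part of these genes in the levels of the members was not tested.

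Cytosolic ribosomal proteins, which do the same work outside mitochondria, also leaned upward with siCYP1B1 in the E2 and vehicle arms, and little with 16aOHE. Of 61 tested, 29 were called higher (47.5%, against 26.5% of all genes) and 1 lower on average, with a median log2 difference of 0.15. By arm, 20 were higher and 0 lower with E2, 9 and 2 with 16aOHE, and 28 and 0 with vehicle. The higher shares were 32.8%, 14.8% and 45.9% in that order, against 11.4%, 10.4% and 11.5% of all genes. Their medians were 0.18, 0.02 and 0.24, against 0.03, 0.01 and 0.03 for all genes. Many of these genes have near-identical pseudogenes, and their levels are uncertain where reads could be shared. Among the members themselves, 12 overlap another gene of the table and 3 have a pseudogene named after them. Of the 64 with neither, 42 were called higher and 1 lower.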

How the data were processed

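The authors deposited CPM values of 15288 genes in 18 libraries, with an offset of 1e-04 on each value, since every column summed to 1000001.5 or 1000001.6. Tools listed per the submitters' processing notes were TopHat2 and Partek, on mm10, with version, strand and annotation not given in the sources used here. Low values fell on steps of 1 read, and 94.1% to 95.4% came out whole within 0.1 reads, so that count tests were not run. The offset was removed and log2(CPM + 1) was computed from the deposited values, a scale that understates changes of genes near 1 CPM. The 11835 genes that averaged 1 CPM or more were fitted with limma 3.58.1 in R 4.3.3 (lmFit, contrasts.fit, eBayes with trend), 1 coefficient per group over all 18 libraries. Benjamini-Hochberg adjustment ran over all genes, separately for 12 contrasts (threshold 0.05), and 1 interaction was added later. The pipeline was tested on simulated data. Groups follow the siRNA and estrogen labels, and replicate numbers only name libraries in accession order. Every value column was mapped to a sample.

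Members named in full were, by rule, up to 4 called members per direction with the largest difference, those without overlap first, the 3 highest and 3 lowest by CPM, members called between the estrogens, neighbouring members, the Mrps18 paralogs, Mrpl12 and Mrps36. Mrpl44 by arm, Mrpl33 and the 3′ UTR bases were described after their values were seen. The members and all lists were chosen with earlier results of these data known. Subunit classes and lists are from general knowledge. Positions are those of the table on mm10, 1-based, with the stop reduced by 1: the reduced stop equalled the RefSeq GRCm38.p6 end for 56.7% of symbols matched, and the stop as listed for 4.13%. Exon lengths and 3′ UTRs (longest protein-coding transcript) are from GENCODE M21, promoters from RefSeq. Alternatives were a pseudocount of 0.1, no filter, quantile normalization, median-of-ratios size factors, fits to only the 2 groups compared and leaving out each library. Figures were drawn with matplotlib 3.10.9.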

Additional observations from a re-analysis of the deposited data

How the results depend on the processing

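No paired analysis was possible because the labels carry no replicate numbers. In the averaged siRNA comparison, Mrps6, Mrpl12, Mrps22, Mrpl34, Mrps36 and Mrps15 kept their direction and their calls in 22 of 22 alternatives. Averaged, 49 members were higher with a pseudocount of 0.1, 44 without a filter, 35 with quantile normalization, 36 with median-of-ratios size factors and 40 to 50 without 1 library. The calls under the first 4 were all among the main 49. Of all genes, 26.5%, 19.6%, 22.5% and 21% were called higher under these 4. Shares of all genes without 1 library and in fits to the 2 groups were not computed. Averaged lower calls were 4 with quantile or median-of-ratios scaling, 1 among members with no overlapping gene or pseudogene (a choice made after seeing the data), and 2 to 4 without 1 library, the 4 without scrambled 16aOHE replicate 1. Mrpl17 was among the lower calls under median-of-ratios scaling. For siCYP1B1 in vehicle, both scalings gave 9 higher calls, and leaving out a library gave 7 to 18 higher and 1 to 3 lower. In E2, quantile scaling and a fit to the 2 groups each gave 11 higher, and leaving out a library 6 to 22 higher and 1 to 3 lower. In 16aOHE a fit to the 2 groups gave 8 higher and 1 lower, and leaving out a library 4 to 20 higher and 1 to 2 lower. For E2 against vehicle in siCYP1B1 cells, higher calls were 2 under both scalings and 7 in a fit to the 2 groups, lower calls 0 without a filter and 3 under quantile scaling, and leaving out a library gave 0 to 6 higher and 0 to 1 lower. In scrambled cells higher calls were 3 without a filter, 0 under both scalings and 2 in a fit to the 2 groups, lower calls 0 without a filter and 0 in that fit, and leaving out a library gave 0 to 6 higher and 0 to 1 lower. For 16aOHE against vehicle leaving out a library gave 0 to 1 lower in siCYP1B1 and 0 to 1 higher in scrambled cells. For 16aOHE against E2, siCYP1B1 calls were 5 and 4 under quantile and median-of-ratios scaling and 0 to 4 without 1 library, and scrambled calls were 1 under both scalings, 1 in a fit to the 2 groups and 1 to 4 without 1 library. For siCYP1B1 in vehicle, the share of higher among called members fell to 75 percent under both scalings, against 88.9 as deposited. Among all called genes it fell as well, to 47 and 41.4 percent under quantile and median-of-ratios scaling (55.7 as deposited). For E2 against vehicle the members' share fell to 40 and 66.7 percent in siCYP1B1 cells (80 as deposited). In scrambled cells it fell to 0 (83.3 as deposited). Among all called genes the E2 shares fell to 50.7 and 45.7 percent in siCYP1B1 cells (60.6 as deposited). In scrambled cells they fell to 51 and 46.9 percent (62 as deposited). The median of all genes was at 0.03 as deposited and at 0.01 with median-of-ratios factors in the averaged comparison. By arm, calls of Mrpl12 held throughout. Of 930 recomputed values of named members, 804 kept direction and side of the threshold, 121 lost a call, 5 gained one and 0 changed sign past the threshold. The causes were not tested. Depth limits Mrps36 and Mrpl23 most.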

Other observations

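The estrogens gave other counts for cytosolic than for mitochondrial ribosomal proteins. Of 61 tested cytosolic ribosomal protein genes, 0 were called higher and 10 lower with E2 against vehicle in siCYP1B1 cells, with a median log2 difference of -0.12. The lower share was 16.4%, against 10.8% of all genes. In scrambled cells 0 were higher and 2 lower, with a median of -0.05, and the lower share was 3.28%, against 11.4%. With 16aOHE against vehicle, 0 were called higher and 12 lower in siCYP1B1 cells (median -0.20; 19.7% lower, against 2.86% of all genes), and 0 in either direction in scrambled cells (median -0.01). The members had medians of 0.03 and 0.03 with E2, and of 0 and -0.01 with 16aOHE, in the same cells. By limma, 0 of 61 cytosolic genes were called for the interaction of siCYP1B1 with E2 or with 16aOHE, as were 0.00% of all genes. An unadjusted p under 0.05 was found in 5 of the 61 for E2, against 3.97% of all genes. For 16aOHE it was found in 18 of the 61, against 5.04% of all genes. The median interaction of the 61 was -0.07 with E2 and -0.16 with 16aOHE. The cytosolic counts were not recomputed under other settings, and levels of these genes are uncertain where reads could be shared with pseudogenes. Both sets of comparisons share the vehicle libraries, and the difference between the 2 gene families was not tested.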
